A study of Oryza sativa Japonica Group with 4 samples.

Results

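The genes described here are those that drive, brake or carry out the cell division cycle in rice, together with *ARGOS*, a regulator of organ size. They were taken by name, with *ARGOS* and *SMR1* known from earlier results of these data. A gene was taken where its symbol or a synonym, with a leading Os dropped, began with the stem of an A, B, D, H, T or U cyclin, of a cyclin-dependent kinase of classes A to G (CDK), of the inhibitor families KRP and SMR, or of E2F, MCM or PCNA, or was *ARGOS*. The gene table held 54 such genes, and 45 of them had a probe set linked to no other gene, among 17905 rice genes measured in this way. These were 19 cyclins, 11 kinases, 5 inhibitors, 9 S-phase factors (MCM and PCNA) and *ARGOS*. The other 9 genes (*CDKB1-1*, *CDKC-2*, *CDKF-2*, *CYCA3-1*, *CYCB1-5*, *CYCD2-1*, *KRP2*, *KRP3* and LOC4328207, which also bears the name *CYCT1-1*) were linked to no such probe set and have no values here. No gene of the table was named E2F or CYCU.

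RNA came from roots of seedlings of rice cultivar TNG67, raised without nitrogen for 2 weeks after germination in the dark. At 17 days of age they were moved for 30 min into hydroponic solution with 1.43 mM NH4NO3 (+N) or into the same solution without it (−N). Each condition had 2 biological replicates and each replicate 1 Affymetrix Rice Genome Array, which makes 4 arrays. Both groups were therefore starved of nitrogen, and the ammonium nitrate was the stated difference between them. The labels call the replicates biological without saying whether plants were pooled or cultures separate, so p-values measure the spread between these arrays. Because whole roots were used, fewer dividing cells and less RNA per cell cannot be told apart.

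A plant cell divides when a cyclin binds and activates a CDK. D cyclins act with A-type kinases at the decision to start a new round, A cyclins act through DNA synthesis, and B cyclins with the plant-specific B-type kinases act at mitosis. KRP proteins (Kip-related) and SIAMESE-related proteins, abbreviated SMR, bind these complexes and block them, and in Arabidopsis high SMR activity goes with endoreduplication, in which DNA is copied without division. MCM2 to MCM7 form the ring-shaped helicase that is loaded on replication origins, and PCNA is the sliding clamp that holds DNA polymerase on its template. *ARGOS* was named in Arabidopsis as an auxin-regulated gene that enlarges organs by prolonging cell proliferation. In roots these activities are concentrated in the meristem at the tip.

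The 4 arrays differed in brightness by replicate number more than by treatment. The median intensity was 17.1 and 25.4 on the +N arrays and 17.8 and 25.2 on the −N arrays. Exactly equal values occurred almost only between arrays of the same number, in 3.73% of probe sets for replicate 1 and 4.97% for replicate 2. Of 8 root marker genes fixed for a check of the tissue, 7 lay above the array median on all 4 arrays and *SCR1* below it. Their summed intensity was 11213 and 12396 in +N, against 9320 and 15205 in −N. Leaf genes were not absent: the summed intensity of 6 such genes was 15719 and 18671 in +N, against 11687 and 20472 in −N. Of these, *RBCS1* stayed at or below 5.49 on every array. Over all 57194 rice probe sets, limma called 266 (0.465%) higher and 8 (0.014%) lower in +N, at 2-fold or more and an unadjusted p under 0.05. None passed after Benjamini-Hochberg adjustment in limma, and 694 (1.21%) had an unadjusted p under 0.05.

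At this threshold 2 of the 45 genes were called higher in +N, the organ size gene *ARGOS* and the inhibitor gene *SMR1*, and none was called lower. That is 4.44% of the genes, beside 1.01% of all measured genes called higher and 0.0223% called lower. Both genes were known from earlier results of these data when the set was drawn up, so this share cannot be read as an excess. No other gene of the set was called. No cyclin, no kinase and no S-phase factor was called in either direction, and the Benjamini-Hochberg adjusted p over all probe sets was 1 for each of the 45. The fitted change was smaller than 1.5-fold for 43 of the 45 genes (95.6%), as for 94.4% of all genes. The median log2 fold change of the 45 was −0.06, beside 0.02 over all genes. Most of them were not dim: 3 genes (*MCM8*, *CYCB1-3* and *CYCD2-2*) lay below the array median on all 4 arrays, and the others lay above it on all 4.

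**Figure D1:**
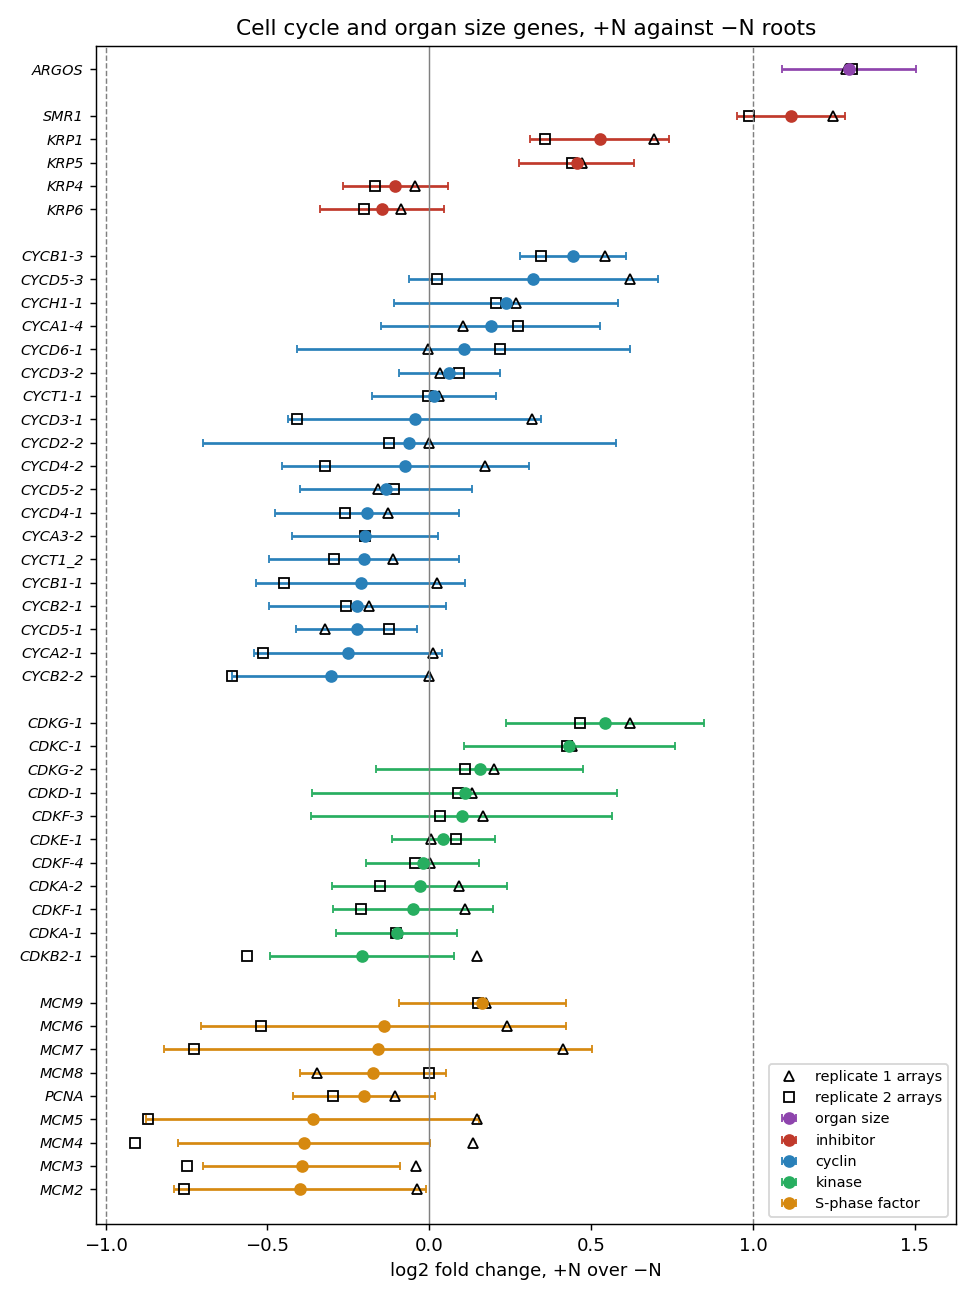
Log2 fold change of +N over −N (x axis) for each of the 45 genes (rows), grouped by class. Filled points are the fitted values with their standard errors as bars, triangles and squares the change between the arrays of replicate 1 and of replicate 2, and dashed lines 2-fold. *ARGOS* at 1.30 and *SMR1* at 1.12 stand past the 2-fold line, and every other gene lies between −0.40 and 0.54.

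*ARGOS* (LOC4335949, chromosome 4) had intensities of 1144 and 945.7 in +N roots, against 468.5 and 382.4 in −N roots. Both +N arrays were above both −N arrays, and the gap between the groups was wider than the gap within either. Its log2 fold change was 1.30 ± 0.21 (SE, n = 2 each, 95% confidence interval 0.67 to 1.92), a 2.46-fold difference past the threshold in limma. The change was nearly the same in each replicate, at 1.29 for the first and 1.31 for the second pair of arrays. Among the 180 genes called higher it ranked 112 by size of change. LOC4335948, the gene beside it that has a probe set, had a log2 fold change of 0.16 ± 0.28 (SE).

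*SMR1* (LOC4349289, chromosome 10) carries a name used for SIAMESE-related CDK inhibitors, although the gene table lists nothing further about its protein. Its intensities were 493.0 and 486.8 in +N roots, against 207.6 and 245.4 in −N roots. The pair of +N values were nearly equal and lay above both −N values. The log2 fold change was 1.12 ± 0.17 (SE, n = 2 each, 95% confidence interval 0.62 to 1.62), or 2.17-fold, also past the threshold in limma. By replicate it was 1.25 and 0.99, the value of replicate 2 just under 2-fold. *SMR1* ranked 152 among the 180 genes called higher, and its neighbours on either side had log2 fold changes of −0.01 ± 0.37 and 0.39 ± 0.77 (SE). When the −N array of replicate 1 was left out, its log2 fold change of 0.997 fell below 2-fold, and *ARGOS* alone was called.

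The 4 measured KRP genes did not move alike. *KRP1*, at 268.1 and 284.1 in +N roots against 165.7 and 221.7 in −N roots, had a log2 fold change of 0.53 ± 0.22 (SE) with a 95% confidence interval of −0.12 to 1.17. *KRP5*, at 138.7 and 158.1 in +N roots against 100.1 and 116.6 in −N roots, had one of 0.46 ± 0.18 (SE) with a 95% confidence interval of −0.08 to 0.99. These KRP genes are named after their values were seen, because their groups did not overlap although neither passed the threshold of fold or of p. By replicate, *KRP1* differed by 0.69 and 0.36 and *KRP5* by 0.47 and 0.44. *KRP6*, the lowest inhibitor gene, had intensities of 168.1 and 190.3 in +N roots, against 178.7 and 219.0 in −N roots (log2 fold change −0.15 ± 0.19, SE), and *KRP4* had a log2 fold change of −0.10 ± 0.16 (SE). Second probe sets of *KRP6* and *KRP4*, below the median of every array, gave 0.17 ± 0.19 and 0.11 ± 0.16 (SE). Of the 4 KRP genes, 2 had both +N arrays above both −N arrays, and with *SMR1* 3 of 5 inhibitor genes did. Among all genes 9.23% did, and 6 of the 45 described here. *SMR1* and *ARGOS* were known from earlier results of these data, so the counts that include them cannot be read as an excess.

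**Figure D2:**
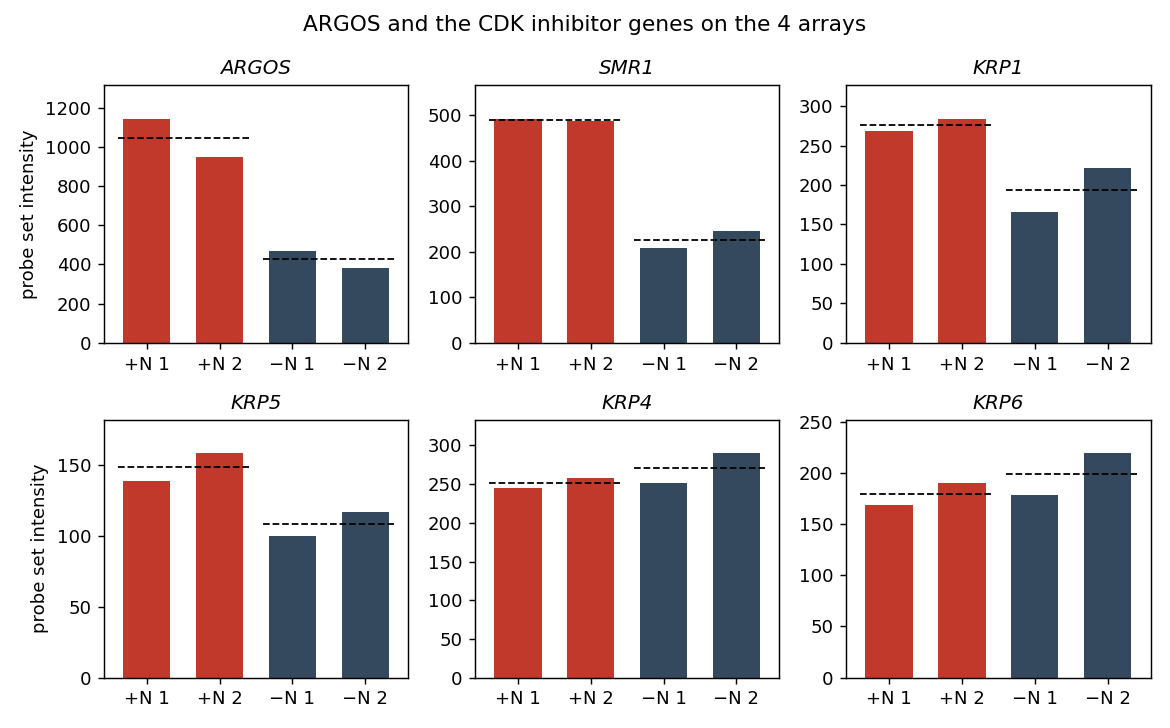
Probe set intensity (y axis, from 0) of *ARGOS* and the 5 inhibitor genes on the 4 arrays (x axis, +N then −N, replicate 1 and 2), with dashed lines at the mean of each pair. For *ARGOS*, *SMR1*, *KRP1* and *KRP5* both +N bars stand above both −N bars, while for *KRP4* and *KRP6* the groups overlap. Each panel has its own scale.

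Of the 19 cyclin genes, 7 had a fitted log2 fold change above 0 and 12 below it, and none had an unadjusted limma p under 0.05. The medians were −0.20 for 3 A cyclins, −0.22 for 4 B cyclins, −0.06 for 9 D cyclins and 0.01 for the H and T cyclins, the partners of CDK-activating and transcriptional kinases. The highest cyclin was *CYCB1-3* (LOC4326914, which the gene table also lists as *CYCB1-1*), at 9.73 and 9.94 in +N roots against 6.69 and 7.82 in −N roots. This difference of 0.44 on the log2 scale (95% confidence interval −0.05 to 0.94) was measured on dim values, below the median of every array. The lowest was *CYCB2-2*, a mitotic cyclin gene, at 194.3 and 207.2 in +N roots against 194.3 and 315.8 in −N roots (log2 fold change −0.30 ± 0.31, SE). Its replicate 1 arrays gave exactly the same value, and only the −N array of replicate 2 stood apart. The second probe set of *CYCB2-2* gave a log2 fold change of −0.09.

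The D cyclins, which link growth signals to the start of division, ranged from −0.22 (*CYCD5-1*) to 0.32 (*CYCD5-3*), 3 above 0 and 6 below. *CYCD5-1* was, with *MCM3*, 1 of the 2 genes of the 45 whose +N arrays both lay below the −N arrays, at 176.6 and 218.3 in +N roots against 220.8 and 238.2 in −N roots. Among all genes 5.12% lay so. After each array was centred on its median, the groups of *CYCD5-1* and of *MCM3* overlapped. The positive value of *CYCD5-3* came from replicate 1, where the log2 fold change was 0.62, beside 0.02 in replicate 2. *CYCD3-2*, whose estimate was the most precise of the cyclins, had a log2 fold change of 0.06 with a 95% confidence interval of −0.40 to 0.53, so that a 1.5-fold change in either direction lay outside its limits. These D cyclins are named after their values were seen.

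The 11 kinase genes lay between −0.21 and 0.54 on the log2 scale, with a median of 0.04, 6 above 0 and 5 below. *CDKG-1* was the highest, a kinase class known in Arabidopsis for its part in splicing and in chromosome pairing. Its intensities were 414.6 and 553.2 in +N roots, against 269.7 and 400.7 in −N roots, without overlap (log2 fold change 0.54 ± 0.31, SE, with a 95% confidence interval of −0.37 to 1.46). A second, dimmer probe set of *CDKG-1* read 27.5 and 85.6 in +N roots and 12.9 and 25.1 in −N roots, which gave 1.43 ± 0.75 on the log2 scale (SE) with a 95% confidence interval of −0.80 to 3.67. *CDKC-1*, a partner of the T cyclins in transcript elongation and named after its values were seen, had a log2 fold change of 0.43 ± 0.33 (SE) and differed by 0.44 and 0.43 in the replicates. The main cell cycle kinase *CDKA-1* stood at −0.10 in each replicate and in the fit (95% confidence interval −0.66 to 0.45). *CDKB2-1*, the mitotic kinase gene measured here, was lowest, at 357.2 and 340.3 in +N roots against 322.4 and 502.2 in −N roots (log2 fold change −0.21 ± 0.28, SE). Its sign differed between replicates, at 0.15 and −0.56.

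Among the S-phase factors, 8 of 9 had a fitted log2 fold change below 0, none with an unadjusted limma p under 0.05. *PCNA*, the replication clamp, had intensities of 999.5 and 1149 in +N roots, against 1076 and 1412 in −N roots (log2 fold change −0.20 ± 0.22, SE, with a 95% confidence interval of −0.86 to 0.46). The groups overlapped, and *PCNA* stood at −0.01 once the −N array of replicate 2 was left out. *MCM2*, the lowest of all 45, had 134.2 and 154.3 in +N roots, against 137.9 and 261.1 in −N roots (log2 fold change −0.40 ± 0.39, SE). *MCM9*, a relative of the helicase subunits outside the ring, was highest of the class, at 80.7 and 105.6 in +N roots against 71.4 and 95.1 in −N roots (log2 fold change 0.16 ± 0.26, SE).

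The helicase genes *MCM2* to *MCM7* shared a pattern that was noticed after their values were seen, in which the −N array of replicate 2 stood highest. In replicate 1 their log2 fold changes ranged from −0.04 to 0.41, with a median of 0.14, and *MCM2* and *MCM3* were at −0.04. In replicate 2 they ranged from −0.91 to −0.52, with a median of −0.75. The −N array of replicate 2 was the brightest of the 4 for all 6 genes and by at least 1.2-fold for each, beside 49.3% and 17.9% of all genes. *MCM7* gives the widest case, at 39.8 and 55.1 in +N roots against 29.9 and 91.3 in −N roots. *MCM5* had 47.7 and 56.4 in +N roots, against 43.0 and 103.1 in −N roots. *MCM4* had 65.6 and 61.0 in +N roots, against 59.7 and 114.4 in −N roots. In each of these genes the −N arrays spanned a wider range than the +N arrays and enclosed both of them. *MCM6* had 28.9 and 42.1 in +N roots, against 24.4 and 60.4 in −N roots. *MCM3* had 63.3 and 62.9 in +N roots, against 65.04 and 105.7 in −N roots, so that its groups did not overlap while the arrays of replicate 1 were nearly equal. After centring each array on its median the −N array of replicate 2 was still the brightest for 6 of 6, and by 1.2-fold for 4 of 6, beside 27.9% and 9.39% of all genes. For these 6 genes the value of replicate 2 minus that of replicate 1 was −0.11 to 0.55 on the log2 scale in +N, where the median over all genes was 0.39, and 0.70 to 1.61 in −N, where it was 0.52.

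Leaving out that array turned the fitted log2 fold changes of *MCM2*, *MCM4*, *MCM5*, *MCM6* and *MCM7* positive, to between 0.06 and 0.65, and left *MCM3* at −0.04. Leaving out the −N array of replicate 1 instead gave −0.86 for *MCM4* and −0.99 for *MCM5*, short of 2-fold, where the median over all genes was −0.23. That fit keeps as its only −N array the one on which these genes were seen to stand highest, so its values restate the pattern. Some other lists stood high on the −N array of replicate 2 as well, which was the brightest by 1.2-fold for 17.9% of all genes. It was so for 7 of 11 tubulin genes, 5 of 8 root markers, 8 of 21 other replication genes and 2 of 6 leaf genes. Other lists gave 6 of 35 for organ size and TCP factors and 1 of 5 for mitosis and endocycle genes. Histone H2B genes gave 0 of 5 and meristem markers 0 of 2. *CASP1*, a gene of the root endodermis and the root marker with the lowest log2 fold change, had 65.6 and 67.5 in +N roots, against 49.2 and 236.0 in −N roots. The root markers *SHR1* and *QHB* were instead brightest on the +N array of replicate 2. That array read 86.1 and 47.1 for them, against 83.9 and 41.1 on the −N array of replicate 2. Whether the tissue sampled has a part in the helicase pattern was not tested.

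**Figure D3:**
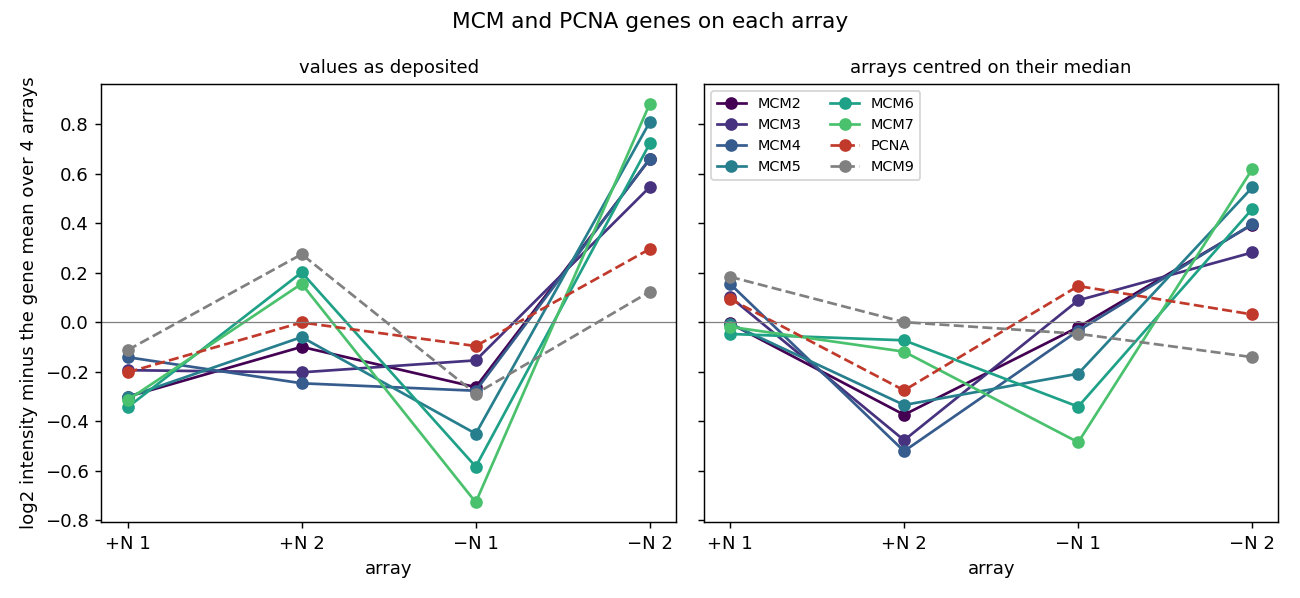
Log2 intensity of *MCM2* to *MCM7*, *PCNA* and *MCM9* minus each gene's mean over the 4 arrays (y axis), by array (x axis, +N then −N, replicate 1 and 2), as deposited on the left and with arrays centred on their medians on the right. Lines join the values of 1 gene and carry no order. The solid lines of *MCM2* to *MCM7* peak on the −N array of replicate 2 in both panels.

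Taking each replicate by itself, 16 of the 45 genes were higher in +N in both, 12 were lower in both, and 17 differed in sign or were exactly equal in 1 of them. Over all genes, 28.7% were higher in both and 21% lower in both. After centring each array on its median, the +N arrays lay above both −N arrays for 12 of the 45 genes and below both for 3, beside 16.8% and 7.62% of all genes. Those 3 were *CYCB2-1*, *CYCD4-1* and *CYCT1_2*. All 5 inhibitor genes kept their sign in both replicates. Genes that differed in sign or were exactly equal in 1 replicate were 5 of 9 S-phase factors, 8 of 19 cyclins and 4 of 11 kinases. Among all genes they were 9010 of 17905. Across all 45 genes the median log2 fold change was 0.09 in replicate 1 and −0.12 in replicate 2. The median standard error of a gene was 0.28, with a range of 0.15 to 0.66, so that differences well below 2-fold could not be resolved for most of them.

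**Figure D4:**
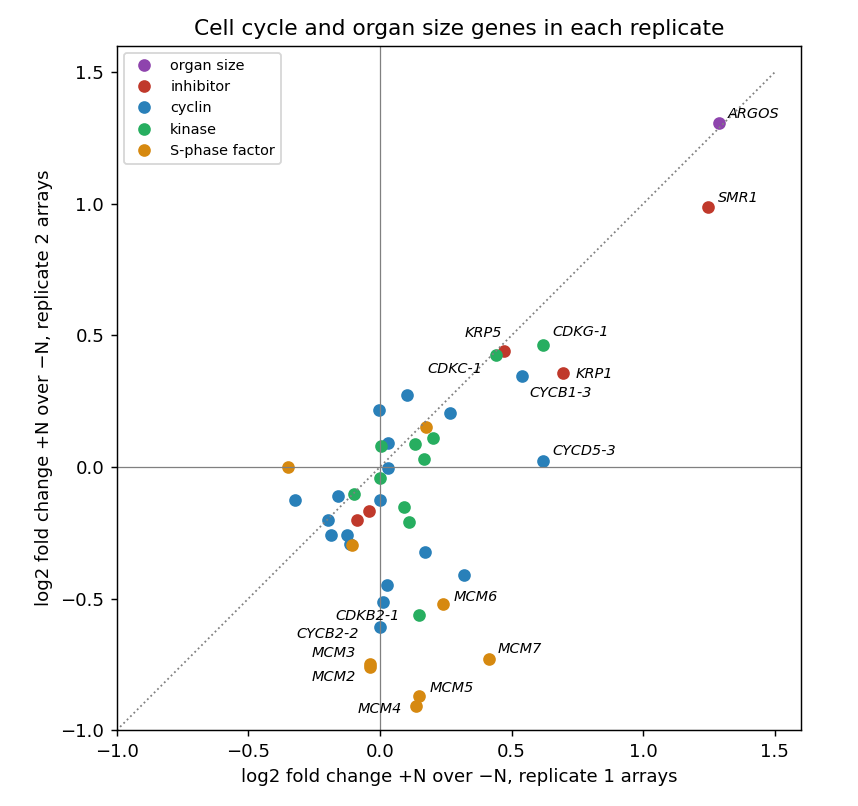
Log2 fold change of +N over −N between the arrays of replicate 1 (x axis) and of replicate 2 (y axis) for the 45 genes, coloured by class, with a dotted line where both are equal. *ARGOS* and *SMR1* lie far up near the line. *MCM2* to *MCM7* lie low, between −0.91 and −0.52 in replicate 2 and between −0.04 and 0.41 in replicate 1.

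The surrounding pathways gave no calls at 30 min. Over all genes 1.01% were called higher and 0.0223% lower, so lists this short would be expected to hold few calls or none. Of 21 other DNA replication genes (origin recognition, clamp loading, single-strand DNA binding, DNA polymerase delta and flap endonuclease) 0 were called. *ORC5*, an origin recognition subunit, was highest at a log2 fold change of 0.63, and *ORC3* lowest at −0.55. *ORC5* was the only one with an unadjusted limma p under 0.05, beside 2.01% of all genes that had such a p and were higher in +N. Among 5 genes listed for mitosis and the endocycle, 5 histone H2B genes and 11 tubulin genes, 0 were called and 0 had an unadjusted limma p under 0.05. In the first list, *CDC25.1* and *CDC25.2* also bear the names *ACR2.1* and *ACR2.2*, so they may be genes of another kind. The lowest values of these lists included *RBR1*, a retinoblastoma-related repressor of S-phase genes, at −0.28. It read below the median of every array. The tubulin gene *TUB4* stood at −0.58. The 5 histone genes measured were all of the H2B kind, and their log2 fold changes lay between 0.01 and 0.43 (*H2B.10*).

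Of 35 genes for other organ size regulators and TCP transcription factors, 0 were called and 0 had an unadjusted limma p under 0.05. At the shares called over all genes, a list of this length would also be expected to hold few calls or none. In these 35 genes, 18 log2 fold changes were above 0 and 17 below. Their log2 fold changes ranged from −0.37 (*SPL18*) to 0.33 (*SPL9*). *SPL18* also bears the name *AT1*, so it may be a gene of another kind, and *SPL2* stood at −0.37 as well. *PCF1* and *PCF2*, TCP factors first described in rice as proteins that bind the *PCNA* promoter and named here for that role, had log2 fold changes of 0.30 ± 0.16 and 0.25 ± 0.21 (SE). *QHB*, a gene of the quiescent centre in the root tip, had intensities of 27.9 and 47.1 in +N roots, against 27.9 and 41.1 in −N roots. The other meristem marker measured, the homeobox gene *OSH1*, was dim, at 5.84 and 8.81 in +N roots against 5.58 and 8.81 in −N roots.

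A further 15 probe sets measured 12 of the 45 genes again. Besides that of *CDKG-1* their log2 fold changes lay between −0.28 and 0.40, and none of the 15 had an unadjusted limma p under 0.05. *ARGOS*, *SMR1*, *KRP1*, *KRP5* and *MCM2* to *MCM7* each had a single probe set, so that their values rest on 1 measurement per array.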

How the data were processed

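Intensities of 4 Affymetrix Rice Genome Arrays were analysed as deposited by the authors, on a linear scale. GCOS and RMA are the tools in the submitters' processing notes, which give no role for either. Array medians differed, and exactly equal values joined arrays of the same replicate number, so scaling and background correction before deposit may have differed between the replicates. No depth applies to arrays, and their number limits the precision. After 187 control probe sets were left out, intensities under 5.16 (the 5th percentile) were set to it and limma 3.58.1 (R 4.3.3) was run on the log2 values of 57194 probe sets in a model of the 2 groups without other terms. A call needed 2-fold and an unadjusted p under 0.05, and Benjamini-Hochberg values were taken over all probe sets. An exact permutation test of 2 against 2 arrays cannot go below 0.333 (two-sided) and was not used. The linear model with moderated variance was tested on simulated data with errors independent between arrays. That test does not cover arrays of a number that deviate together.

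Probe sets were named through GEO's platform annotation and RefSeq gene symbols. A total of 22436 had 1 gene, 95 several and 34663 none, and each gene was read from its brightest single-gene probe set. Values are given on each array for called genes, *ARGOS*, *SMR1*, *PCNA* and the highest and lowest of each class. The genes, marker and pathway lists were chosen with earlier results of these data known. From the pathway and marker lists, 6 genes caught by the name rule were left out after their values were seen, since their other names show another kind of gene. *CDC25.1* and *CDC25.2*, also named *ACR2.1* and *ACR2.2*, were kept, as was *SPL18*, also named *AT1*. Alternatives covered normalization, the dim filter, floor, variance, thresholds, the probe set of a gene, a replicate block and leaving out each array. The arrays of a number deviated together (r = 0.56 over probe sets), but the labels do not say that a number marks a shared batch. No sequence is shown.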

Additional observations from a re-analysis of the deposited data

How the results depend on the processing

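With all 4 arrays, the 2 calls (*ARGOS* and *SMR1*) were kept under median centring, quantile normalization, leaving out dim probe sets, a variance trend, pooled variance, an offset for the floor, a 1.5-fold threshold and both other choices of probe set, and no gene of the 45 was called lower. At 3-fold and at an adjusted p under 0.05, 0 were called higher. Leaving out 1 array gave 1 to 2 calls higher, and a median log2 fold change of the 45 between −0.29 and 0.20, while that of all genes lay between −0.23 and 0.28. In each of these fits, those without 1 array included, *ARGOS* and *SMR1* had an unadjusted p under 0.05. The *SMR1* call was lost without the −N array of replicate 1, where its log2 fold change was 0.997. Of the 45 genes, 38 kept their sign in the 9 alternatives with all 4 arrays and 7 did not.

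The labels do not say that arrays of a number share plants, a batch or a day. With the replicate number as a block (replicate block) the same 2 genes were called, 15 probe sets were called lower, and 7 of the 45 genes had an unadjusted limma p under 0.05, all higher in +N: *ARGOS*, *SMR1*, *KRP1*, *KRP5*, *CDKG-1*, *CDKC-1* and *CYCB1-3*. In that fit 5.68% of all genes had such a p and were higher in +N, and 1.98% had one and were lower, beside 2.01% and 0.19% without the block. *ARGOS* and *SMR1* were known from earlier results of these data, so the count of 7 cannot be read as an excess.

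Over all probe sets, the 266 calls higher became 171 with pooled variance, 517 at 1.5-fold, 110 at 3-fold and 0 after adjustment, and 159 to 543 without 1 array. The 8 calls lower became 20 with median centring, 14 with quantile normalization, 16 without dim probe sets, 0 with pooled variance, 3 with an offset, 56 at 1.5-fold, 0 at 3-fold, 0 after adjustment, and 5 to 413 without 1 array. The cause was not tested.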
